A study of Mus musculus with 8 samples.

Results

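The 5 connexin genes *Gja1*, *Gja4*, *Gja5*, *Gjc1* and *Gjb2* were examined in ovaries of juvenile mice labelled WT or knockout (KO) for ghrelin-O-acyltransferase (GOAT), the enzyme that attaches an acyl group to the hormone ghrelin. The members were taken by gene symbol from the deposited table of read counts, which lists all 5 among 45583 symbols. The study sequenced RNA from the ovaries of 3-week-old C57/Bl6 mice, with 4 libraries labelled WT (animals 1118, 1119, 1120 and 1121) and 4 labelled GOAT KO (1139, 1140, 1141 and 1146), 1 library per mouse. In the GOAT KO mice *Mboat4*, the gene encoding GOAT, is knocked out, and both groups were littermates from heterozygous crosses, with no other allele or agent named for either. Each library holds the whole ovary, so fewer cells of a type and less RNA per cell cannot be told apart.

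Connexins are membrane proteins that assemble into hexamers, and hexamers of neighbouring cells dock to form gap junctions, channels that pass ions and small molecules such as cyclic nucleotides. In the ovarian follicle, gap junctions couple granulosa cells to each other and, through fine granulosa cell projections that cross the zona pellucida, to the oocyte. *Gja1* encodes Cx43, the main connexin between granulosa cells, and *Gja4* encodes Cx37, which the oocyte contributes to its junctions with granulosa cells. *Gja5* encodes Cx40, best known from arterial endothelium and heart. *Gjc1* encodes Cx45, found in smooth muscle and the cardiac conduction system, and *Gjb2* encodes Cx26, a connexin of epithelia and the inner ear.

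The members share a protein fold in which cysteines of the extracellular loops hold the docking surface. The coding stretch for the first of these loops is shown because it is what makes the 5 genes a family, and because similar sequence could divide reads between paralogs. The lines below, read from the GENCODE M21 transcripts (GRCm38), run from the first to the last of the 3 cysteine codons, which are in capitals, and begin at coding base 160 in *Gja1*, *Gja4* and *Gja5* and at coding base 157 in *Gjc1* and *Gjb2*.
Gja1: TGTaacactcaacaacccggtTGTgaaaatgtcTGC
Gja4: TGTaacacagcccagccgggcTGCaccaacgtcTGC
Gja5: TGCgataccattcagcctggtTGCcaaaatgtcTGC
Gjc1: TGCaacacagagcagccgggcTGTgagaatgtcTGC
Gjb2: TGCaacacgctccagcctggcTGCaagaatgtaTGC

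Over these 36 bases, pairs of members were identical at 23 (*Gja4* and *Gja5*) to 28 bases (*Gjc1* with *Gja1*, *Gja4* or *Gjb2*). None of the 50-base words of the 5 transcripts, 50 bases being the length of a read, occurred in a transcript of another gene. Each member has its whole coding sequence in a single exon, of 1146 bases in *Gja1*, 999 in *Gja4*, 1074 in *Gja5*, 1188 in *Gjc1* and 678 in *Gjb2*. The exons upstream of it are therefore noncoding.

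The libraries held 16147216 to 19481798 counts on genes and 2586686 to 3239382 reads across splice junctions, and 85.92 to 87.02% of reads had mapped. *Mboat4* was counted 1, 1, 1 and 3 times in the libraries labelled WT and 5, 7, 7 and 8 times in those labelled GOAT KO, and the groups did not overlap. The direction of the deleted gene goes against the labels, and every direction below is that of the libraries as labelled. At 8 counts or fewer the counting error is large, and the cause was not tested. By the study's own PCR check of the knockout, which is not analysed here, *Mboat4* was not amplified from juvenile GOAT KO ovaries. The study left out 1 library of each group without naming them, and WT 1120 and GOAT KO 1139 were left out as an alternative here. Markers of oocytes and granulosa cells were detected in every library, with summed levels of 1198 to 1467 counts per 1000000 (CPM) for 11 oocyte genes and 5776 to 7820 CPM for 11 granulosa cell genes.

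*Gja1* dominated the connexins of the juvenile ovary. It ranked first or second of all genes by counts in every library, where it took 0.3125 to 0.3798% of all counts on genes. By level per transcript length (CPM per kb of 1 GENCODE transcript, 3071 bases for *Gja1*), it ranked 8 of 15820 genes on average, and between 7 and 11 in single libraries. The mean level in the libraries labelled WT was 1127 ± 74.6 CPM per kb (SD, n = 4) for *Gja1*. It was 19.6 ± 2.11 CPM per kb for *Gja4* and 13.9 ± 1.90 CPM per kb for *Gjc1*. *Gja5* and *Gjb2* were far lower, at 0.550 ± 0.0457 and 0.137 ± 0.0677 CPM per kb.

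The order *Gja1*, *Gja4*, *Gjc1*, *Gja5*, *Gjb2* held in every library, since in each library the levels per kb of neighbours in this order did not meet. The closest neighbours were *Gja4* and *Gjc1*, which lay at 17.84 and 16.58 CPM per kb in WT 1119. Across libraries the ranges of these neighbours were 17.70 to 23.21 CPM per kb for *Gja4* and 12.37 to 16.89 for *Gjc1*. The plot of connexin levels shows these steps between genes, the smallest of which was that between *Gja4* and *Gjc1*.

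**Figure D1:**
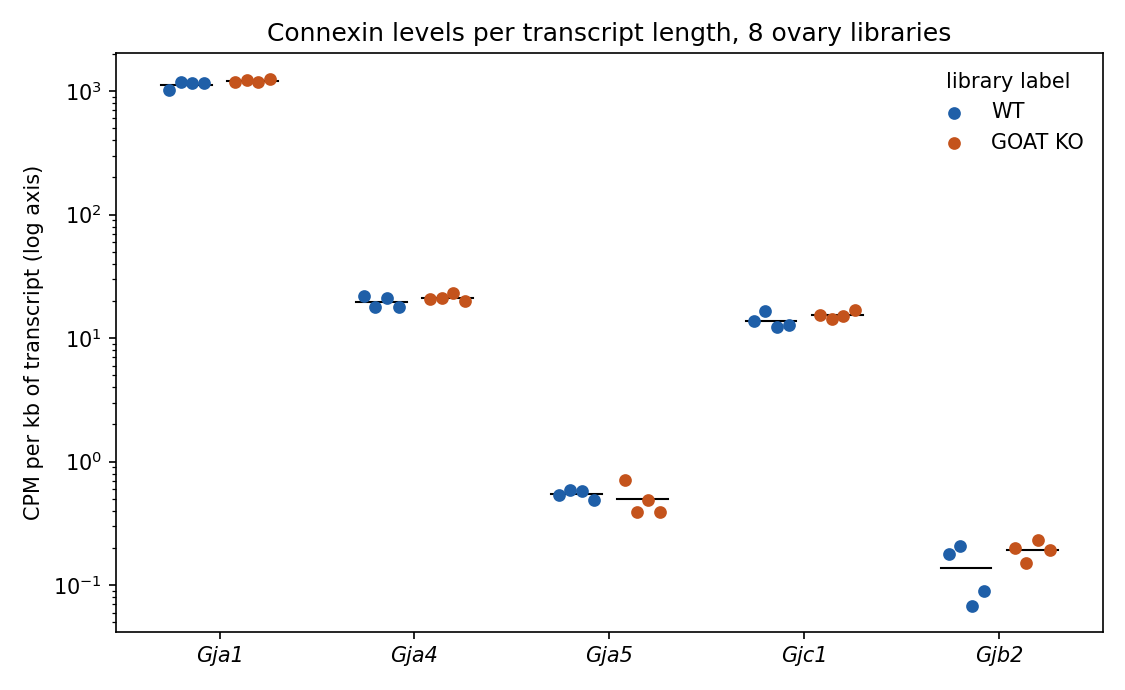
Level of each connexin gene in CPM per kb of transcript (log axis) in the 8 libraries. Points are single libraries, labelled WT in blue and GOAT KO in orange, and black lines are group means. *Gja1* lies between 1018 and 1243 and *Gjb2* between 0.0684 and 0.234, and for each gene the points of both groups overlap.

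Which connexins differ between the libraries labelled GOAT KO and WT was asked with edgeR's quasi-likelihood test over all genes that passed a filter on low counts. At an adjusted p under 0.05, 0 of the 4 members tested were called, beside 4 of 16601 genes (0.0241%). The study's own rule, which asks for a log2 fold change beyond 0.5 in either direction and p under 0.05 before adjustment, called 0 of 4 members and 278 of 16601 genes (1.67%). The p threshold of that rule alone passed 0 of 4 members and 767 genes (4.62%). DESeq2 and limma-voom likewise called 0 of the 4. Without WT 1120 and GOAT KO 1139 the members called were again 0 of 4, beside 20 genes (0.12%) after adjustment, 398 (2.39%) by the study's rule and 1574 (9.46%) by its p threshold alone, of 16641. *Gjb2* was the member below the filter and was not tested.

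*Gja1* (ENSMUSG00000050953.10, chromosome 10, 56377330 to 56402513, plus strand) had 50454, 65450, 64370 and 65204 counts in the libraries labelled WT and 60416, 61727, 71563 and 65710 in those labelled GOAT KO. Scaled to library size, these were 3126, 3637, 3533 and 3555 CPM against 3615, 3772, 3663 and 3818 CPM. WT 1118 was the lowest of the 8, and the groups overlapped only through WT 1119, which lay above GOAT KO 1139. The log2 fold change of *Gja1* came to 0.10 ± 0.07 (SE, edgeR adjusted p = 0.983), a ratio of 1.07 with a 95% interval of 0.967 to 1.19. *Gja1* thus had the narrowest interval of the 4 members tested.

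*Gja4* (ENSMUSG00000050234.7, chromosome 4, 127311421 to 127314039, minus strand) had 593, 541, 643 and 547 counts in the libraries labelled WT. It had 583, 579, 764 and 577 counts in those labelled GOAT KO. On the CPM scale the groups spanned 29.8 to 36.7 and 33.5 to 39.1, so they overlapped, with GOAT KO 1141 the highest and WT 1119 and WT 1121 the lowest. Its log2 fold change came to 0.12 ± 0.09 (SE, edgeR adjusted p = 0.983), with a 95% interval of 0.948 to 1.24 for the ratio.

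*Gjc1* (ENSMUSG00000034520.14, chromosome 11, 102799579 to 102819700, minus strand) had 423, 568, 429 and 445 counts in the libraries labelled WT and 490, 448, 565 and 553 in those labelled GOAT KO. WT 1119, at 31.6 CPM, lay among the libraries labelled GOAT KO, whose range was 27.4 to 32.1 CPM, while the other 3 WT libraries lay between 23.5 and 26.2 CPM. Its log2 fold change came to 0.16 ± 0.10 (SE, edgeR adjusted p = 0.983), with a 95% interval of 0.959 to 1.30 for the ratio. Without WT 1119 it was 0.25 with an unadjusted p of 0.0146, and the edgeR adjusted p was 0.975.

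*Gja5* (ENSMUSG00000057123.14, chromosome 3, 96904693 to 97077416, plus strand), the arterial connexin, had 27, 33, 33 and 28 counts in the libraries labelled WT and 37, 20, 30 and 21 in those labelled GOAT KO. The WT values lay close together, inside the wider range of the GOAT KO values, and GOAT KO 1139 was the highest of all. Its log2 fold change came to -0.14 ± 0.22 (SE, edgeR adjusted p = 0.983), and the 95% interval of the ratio, 0.645 to 1.27, was the widest of the 4. With 20 to 37 counts a library, changes within that interval cannot be told from none. Larger changes could also go uncalled after adjustment. The annotated span of *Gja5* overlaps *Gpr89*, at 43.8 CPM in the libraries labelled WT, and because the use of strand in counting is not given, reads on shared bases cannot be told apart.

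*Gjb2* (ENSMUSG00000046352.7, chromosome 14, 57098600 to 57104702, minus strand) had 7, 9, 3 and 4 counts in the libraries labelled WT and 8, 6, 11 and 8 in those labelled GOAT KO. The low values were those of WT 1120 and WT 1121, and the other 6 libraries overlapped. The log2 ratio of the mean CPM was 0.51, against a within-group SD of 0.57 on that scale (two-sided exact permutation test, n = 4 and 4, p = 0.229). At these counts the counting error alone is large.

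The SD of log2 CPM within groups was 0.07 for *Gja1*, and 12.8% of tested genes had a lower one. It was 0.13 for *Gja4* and 0.15 for *Gjc1*, near the median of 0.15 over all tested genes, and 0.28 for *Gja5*. These SDs include counting error, which is largest for *Gja5* with its 20 to 37 counts a library, and the part of animals in them was not tested.

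Further connexin genes were scarcer than *Gja4* and *Gjc1* or had no counts, and those described here were not called by either rule. *Gjb1*, which encodes the Cx32 of liver and myelin, had 15 to 24 counts a library and a log2 fold change of 0.09. *Gjc3* had 110, 149, 42 and 99 counts in the libraries labelled WT and 54, 93, 107 and 106 in those labelled GOAT KO, so that its lowest values were those of WT 1120 and GOAT KO 1139.

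*Gjd2* and *Gje1*, known from neurons and eye, had 0 counts in all 8 libraries. The pannexins are channel proteins with a similar topology that form no gap junctions in most tissues. *Panx1* was near the level of *Gja4* by counts, with 495 to 745 counts, and its log2 fold change was 0.08 ± 0.10 (SE, edgeR adjusted p = 0.983). *Panx2* had 7 to 20 counts and a log2 fold change of 0.31, and *Panx3* had 0 counts in every library. The plot of fold changes shows that each of these intervals crosses 0.

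**Figure D2:**
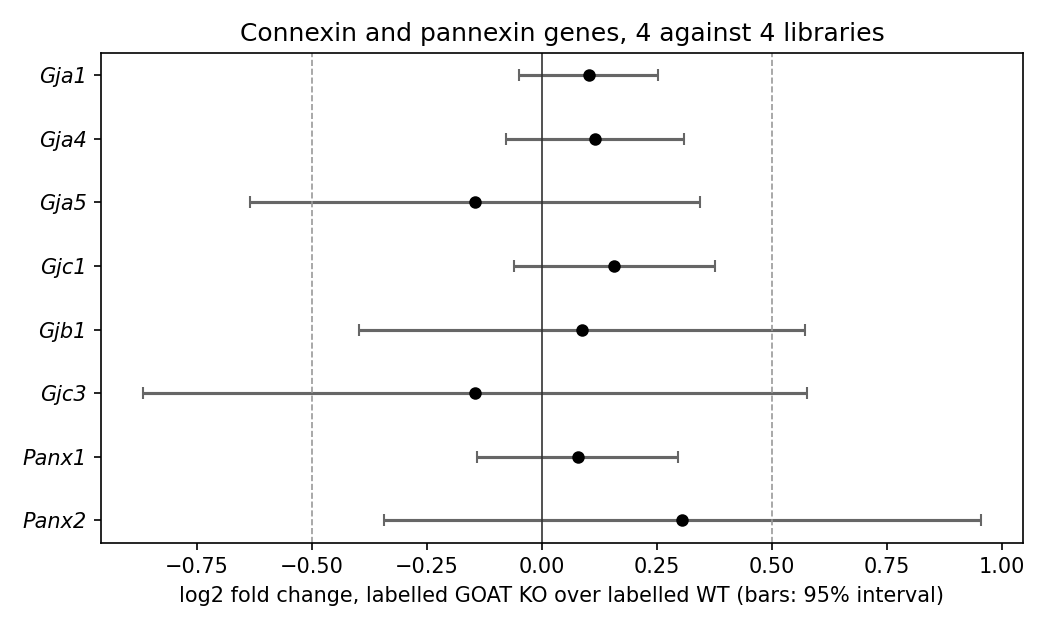
Log2 fold change of the 4 members tested and of *Gjb1*, *Gjc3*, *Panx1* and *Panx2*, libraries labelled GOAT KO over WT (4 against 4). Bars are 95% intervals of the edgeR fit, the solid line marks 0 and dashed lines mark the study's threshold of 0.5 in either direction. Every interval includes 0, and that of *Gja1* is the narrowest.

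Whether the connexin pool changed in makeup was tested by each member's share of the summed CPM per kb of the 5 genes. *Gja1* made up 97.0 ± 0.351% of the pool in the libraries labelled WT and 97.0 ± 0.147% in those labelled GOAT KO (SD, n = 4 each). *Gja4* made up 1.70 ± 0.283% and 1.70 ± 0.138%, and *Gjc1* 1.20 ± 0.160% and 1.24 ± 0.0763%. The shares of *Gja5* and *Gjb2* were below 0.1% throughout. By two-sided exact permutation tests over libraries, which with 4 against 4 cannot go below p = 0.029, 0 of 5 shares differed, with p between 0.286 and 0.971.

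Reads across splice junctions gave a second readout of the same libraries. Of the 4 members with any such read, *Gja1* was the 1 whose groups did not overlap, beside 2829 of 66015 single junctions (4.29%). Its first exon is joined to the coding exon over an intron from 56377519 to 56387533 on chromosome 10. That junction was crossed by 38, 98, 79 and 100 reads in the libraries labelled WT and by 125, 117, 171 and 126 reads in those labelled GOAT KO. Every library labelled GOAT KO thus had more such reads than any labelled WT, and WT 1118 had by far the fewest.

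Per 1000000 junction reads, all *Gja1* junctions together had 27.4 ± 8.28 reads in the libraries labelled WT and 47.0 ± 3.99 in those labelled GOAT KO (SD, n = 4 each, by a two-sided exact permutation test, which gave the lowest p it can give here, 0.029). Per 1000 *Gja1* counts the values were 1.26 ± 0.342 and 2.07 ± 0.228 (two-sided exact permutation test, n = 4 and 4, p = 0.029), so the difference was larger than that of the gene counts. Across all junctions tested, groups without overlap and with the libraries labelled GOAT KO higher were found at 1542 of 66015 (2.34%), and groups without overlap in either direction at 2829 (4.29%). In an edgeR fit over those junctions the *Gja1* junction had a log2 fold change of 0.78 ± 0.23 (SE, unadjusted p = 0.0075, a threshold of 0.05 being passed by 2855 junctions or 4.32%) and did not pass adjustment (adjusted p = 0.925), while 5 junctions (0.0076%) did. Leaving out WT 1118 gave a log2 fold change of 0.59 (unadjusted p = 0.00093, adjusted p = 1.0). With 3 libraries a group, without WT 1120 and GOAT KO 1139, the groups again did not overlap, but the exact permutation test cannot go below p = 0.1.

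A further readout came from the read coverage of exons in the transcripts that the authors assembled. Coverage of the first *Gja1* exon was 35.1, 33.3, 29.5 and 36.1% of that of the coding exon in the libraries labelled WT, and 33.2, 31.9, 64.2 and 34.7% in those labelled GOAT KO. GOAT KO 1141 stood apart and the other 7 libraries lay together, so this measure did not divide the groups (two-sided exact permutation test, n = 4 and 4, p = 0.6). Without GOAT KO 1141 the difference of the group means, GOAT KO minus WT, changed from 7.53 to -0.21 percentage points. Of 218 genes with a transcript of 2 exons and at least 4000 counts, 80 had fewer junction reads than *Gja1* relative to their counts and length. Junction reads per count, times transcript bases, were 5.19 for *Gja1*, against a median of 14.1 and quartiles of 0.992 and 43.8.

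Loss of reads towards the 5′ end, a sign of RNA quality, was compared by the ratio of reads on the first to reads on the last junction of 7642 genes. This ratio was 0.405 ± 0.0340 in the libraries labelled WT and 0.402 ± 0.0147 in those labelled GOAT KO (SD, two-sided exact permutation test, n = 4 and 4, p = 0.943). WT 1118, which had the fewest *Gja1* junction reads, had the highest ratio, at 0.427, and WT 1120 had the lowest, at 0.355. The part of RNA quality in the *Gja1* junction reads was not tested. The 3 readouts of *Gja1* are drawn side by side for each library.

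**Figure D3:**
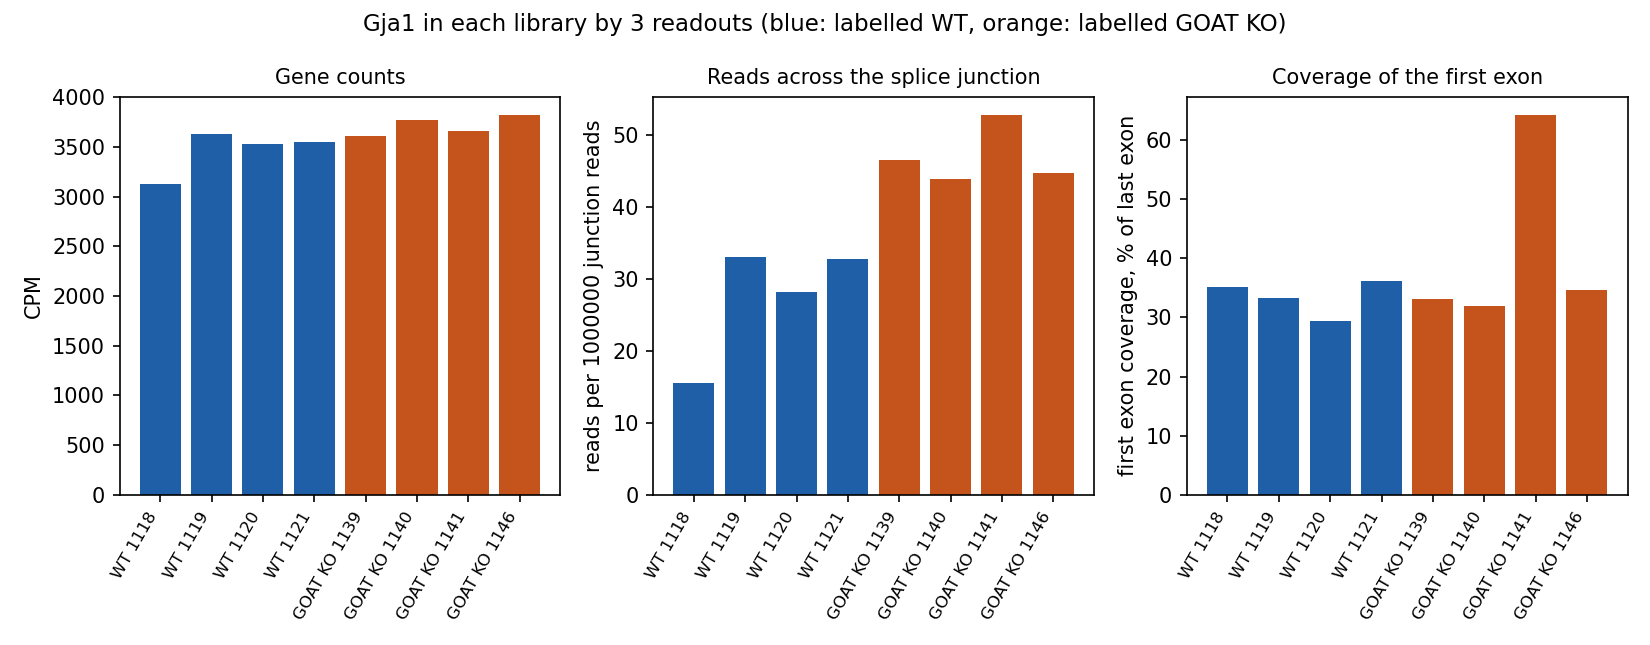
*Gja1* in each library by gene counts (CPM), reads across its splice junctions per 1000000 junction reads, and coverage of the first exon as percent of that of the last exon. Bars are single libraries, labelled WT in blue and GOAT KO in orange. Junction reads are higher in all 4 libraries labelled GOAT KO, whereas gene counts overlap and first exon coverage sets apart GOAT KO 1141 at 64.2%.

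Coverage of the first *Gja1* exon did not divide the groups, and a link of the junction reads to upstream sequence was not tested. The sequence upstream of the first *Gja1* exon is shown as a description. It is the 250 bases before the RefSeq start (GRCm38.p6, chr10:56377050-56377299, plus strand), and capitals mark the single match to the AP-1 motif TGANTCA on either strand.
Gja1 promoter: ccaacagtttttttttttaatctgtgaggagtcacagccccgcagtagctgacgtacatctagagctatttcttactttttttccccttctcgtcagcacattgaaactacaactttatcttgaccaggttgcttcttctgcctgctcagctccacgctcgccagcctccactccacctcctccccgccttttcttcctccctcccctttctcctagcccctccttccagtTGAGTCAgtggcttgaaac

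Such an AP-1 match was held by 6.75% of 32851 promoters of that length, and no match to the Sp1 motif GGGCGG, held by 32.7%, was found in this window. Of the 5 members, 4 had a promoter in the RefSeq table used, and *Gja4*, *Gja5* and *Gjb2* each held at least 1 match to GGGCGG. These matches are descriptions of the sequence only.

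The splice junctions of the other members were thinly covered. *Gjc1* junctions were crossed by 1, 7, 10 and 2 reads in the libraries labelled WT and by 2, 3, 7 and 8 in those labelled GOAT KO. The junction that joins the coding exon of *Gjc1* to the short exon before it had 22 reads in all, of which 8 came from WT 1120 and none from the other 3 libraries labelled WT. From the short exon, reads ran to 3 different upstream exons, with 3, 5 and 10 reads over all libraries, so reads from more than a single *Gjc1* leader were seen.

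*Gja4* junctions had 2 reads in WT 1120 and 1 each in GOAT KO 1139 and GOAT KO 1146. *Gja5* had 2 reads in WT 1119 and 1 in WT 1121. For *Gjb2* 0 reads were seen in 8 libraries. The authors' assembly placed a *Gja1* transcript in 8 of 8 libraries, a *Gjc1* transcript in 4, a *Gja4* transcript in 1 (WT 1120) and none of *Gja5* or *Gjb2*. The 4 libraries with an assembled *Gjc1* transcript, WT 1120, GOAT KO 1140, GOAT KO 1141 and GOAT KO 1146, were those with reads on the junction next to the coding exon.

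Gap junctions are anchored at adherens and tight junction proteins and are opened, closed and turned over by kinases and ubiquitin ligases. Of 16 such partners, 0 of 16 tested passed adjustment or the study's rule, and their median log2 fold change was -0.06, beside -0.0003 over all tested genes. *Src*, a kinase that phosphorylates Cx43, had a log2 fold change of -0.14 ± 0.07 (SE, edgeR adjusted p = 0.983). *Cav1*, which encodes the caveolar protein that binds Cx43, had 0.20 ± 0.09 (SE, edgeR adjusted p = 0.983). The scaffold *Tjp1* and the cadherin *Cdh2* had log2 fold changes of -0.07 and -0.05. Of these 16 genes, 0 separated the groups without overlap, beside 484 of 16601 tested genes (2.92%).

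Transzonal projections carry the junctions to the oocyte, and cyclic GMP passing through them holds the oocyte in meiotic arrest. Of 8 genes for these projections and signals, 0 of 8 passed adjustment or the study's rule, and their median log2 fold change was -0.01. *Nppc*, the ligand made by mural granulosa cells that drives cyclic GMP synthesis, was the 1 gene of the list whose groups did not overlap. It lay at 11.8, 16.1, 17.2 and 15.9 CPM in the libraries labelled WT and at 22.3, 19.9, 24.1 and 19.2 CPM in those labelled GOAT KO. Its log2 fold change of 0.49 ± 0.12 (SE, unadjusted p = 0.00226, edgeR adjusted p = 0.983) was just under the 0.5 of the study's rule. The study also used a lower threshold for its Ingenuity pathway analysis, in which *Nppc* is listed as increased. Groups without overlap in that direction were found for 273 of 16601 genes (1.64%). *Npr2*, the receptor for this ligand, had a log2 fold change of -0.005, and *Pde3a* and *Gpr3*, which act in the oocyte on cyclic AMP, had 0.04 and -0.25.

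The lists of cell type markers showed what the connexins could be compared with. Of the 11 oocyte, 11 granulosa cell, 7 theca, 9 endothelial, 5 arterial, 8 smooth muscle, 7 surface epithelial, 6 leukocyte and 2 oviduct genes tested, 0 passed adjustment, and the summed levels of each list overlapped between groups. The study's rule called *Inhba*, an inhibin and activin subunit of granulosa cells (log2 fold change 0.95), and *Lyz2*, the lysozyme of macrophages (log2 fold change -0.52), beside 1.67% of all tested genes. The 5 arterial markers, the cells in which *Gja5* is best known, summed to 39.1 to 49.2 CPM in the libraries labelled WT and 40.8 to 47.3 CPM in those labelled GOAT KO. The leukocyte markers summed to 85.8 to 112.2 CPM and 65.5 to 88.1 CPM, with 2 of 6 genes not overlapping, beside 2.92% of all tested genes, and a median log2 fold change of -0.28, and the oviduct markers to 3.78 to 10.6 CPM and 5.63 to 10.5 CPM. The part of cell makeup in the connexin values was not tested.

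How the members varied with each other and with the cell types was described over the 8 libraries by 40 correlations, of which 0 passed adjustment by Benjamini-Hochberg and 2 had an unadjusted p under 0.05. The first was *Gja4* with the mean log2 CPM of the 11 oocyte genes (Pearson r = 0.81, exact permutation p = 0.0108, adjusted p = 0.216, Spearman rho = 0.90, exact permutation p = 0.00456, adjusted p = 0.183, n = 8). *Gja4* was highest in GOAT KO 1141 and WT 1118, which were also the highest for the oocyte genes, and without these 2 libraries r was 0.64. After each group was centred on its mean, r was 0.78. Among the single oocyte genes, *Zp3* and *Zp2*, which encode zona pellucida proteins, and *Gdf9*, an oocyte growth factor, had r of 0.90, 0.90 and 0.87 with *Gja4*. *Zp1*, *Nobox* and *Nlrp5* had 0.85, 0.81 and 0.75. *Bmp15*, *Figla*, *Oosp1*, *Ddx4* and *Dazl* had 0.53, 0.45, 0.39, 0.31 and -0.10.

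**Figure D4:**
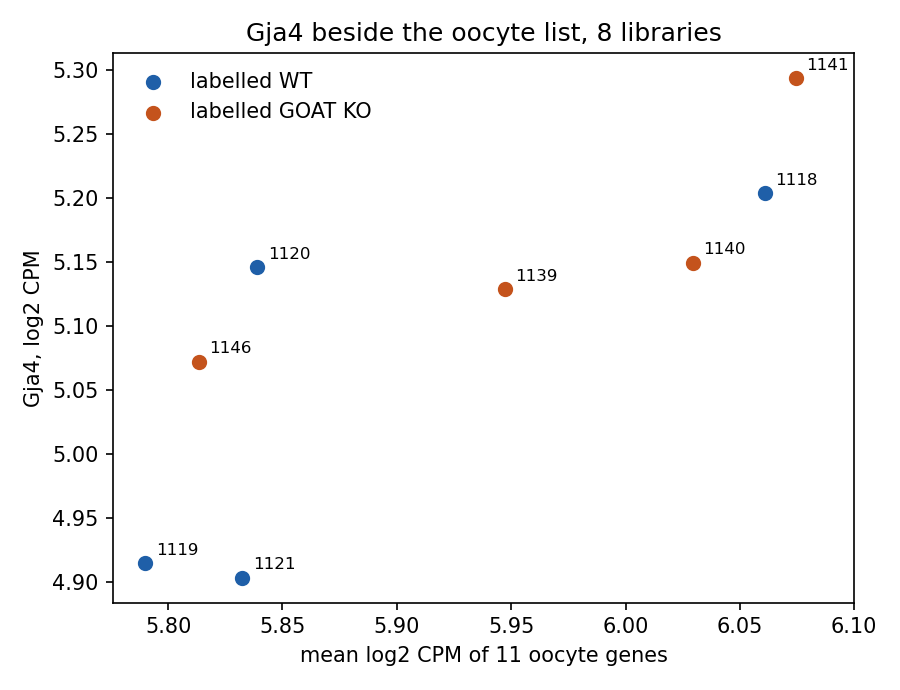
*Gja4* level (log2 CPM) against the mean log2 CPM of 11 oocyte genes in the 8 libraries, with the animal number beside each point. Libraries labelled WT are blue and those labelled GOAT KO orange. WT 1118 and GOAT KO 1141 are at the upper right, and the correlation of 0.81 did not pass adjustment over 40 relations.

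The second was *Gjc1* with *Gjb2* (Pearson r = 0.85, exact permutation p = 0.00625, adjusted p = 0.216, Spearman rho = 0.76, exact permutation p = 0.0368, adjusted p = 0.735, n = 8). It rested on WT 1120 and WT 1121, the lowest libraries for both genes, without which r was 0.47. *Gja1* and *Gja4*, which couple neighbouring compartments of the follicle, had an r of -0.18 (exact permutation p = 0.656, adjusted p = 0.999, Spearman rho = -0.048, exact permutation p = 0.935, n = 8). After each group was centred on its mean r was -0.70, and without WT 1118 and GOAT KO 1146 it was 0.34, so the sign rested on these 2 libraries.

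The genes whose log2 CPM followed each member most closely over the 8 libraries are given as a description, with no test. For *Gja4* they were *Adcy1* (r = 0.97) and *Gucy2e* (r = 0.96), an adenylyl and a guanylyl cyclase, and 28 genes exceeded 0.9. For *Gja1* they were *Gm12090* (r = 0.98) and *Cdc25c* (r = 0.98), with 137 genes above 0.9. *Plekho2* and *Anks1* followed *Gja5* (r = 0.97 and 0.96), with 17 genes above 0.9. *Gm9387* and *Tmem181b-ps* followed *Gjc1* (r = 0.93 and 0.92), with 5 genes above 0.9.

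None of the flanking genes described here was called by either rule. Beside *Gja1* lie *Tbc1d32* and *Gm9795* (log2 fold change 0.06 and 0.08), beside *Gja5* lie *Pdzk1* and *Acp6* (0.13 and -0.06), and beside *Gjb2* lie *Zmym2* and *Cryl1* (-0.03 and 0.08). Beside *Gjc1* lie *Adam11* (0.20) and *Higd1b*, a low gene at 0.58 with an adjusted p of 0.983 by edgeR. *Gja4* lies on chromosome 4 between 100 and 150 Mb, where 28 of 553 tested genes (5.06%) were called by the study's rule, beside 255 of the 15820 tested genes with a position, and *Zscan20*, the nearest tested gene after it, had a log2 fold change of -0.10.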

How the data were processed

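Ovary RNA of 4 mice labelled WT and 4 labelled GOAT KO was sequenced as 50-base single reads. The authors aligned the reads to mm10 (GRCm38) with TopHat 2.0.14, as their processing notes name it, and deposited raw, unnormalized counts of reads on each gene symbol. Also deposited were the counts of reads across each splice junction, the percentages of mapped reads per library (percent of all reads), and transcripts assembled with StringTie 1.0.4, whose exon coverage was used. The counting tool and its use of strand are not given in the sources used here.

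Counts were fitted with edgeR 4.0.16 (TMM scaling, filterByExpr with minimum counts of 10 per median-sized library and 15 in total, quasi-likelihood test) in R 4.3.3, with Benjamini-Hochberg adjustment over all genes tested. Exact permutation tests over libraries, for single values, went through every split of the libraries into groups. The procedure was checked against SciPy 1.17.1 on random values. The fits were tested on simulated data. Lengths and positions come from 1 GENCODE M21 transcript per gene, promoters from RefSeq. Replicate libraries differed by more than sampling noise (chi-square per gene 4.22 to 27.1), and each came from another mouse. No batch is named in the labels. Blank or total rows were not part of the tests. For *Gjb2*, a pseudocount of 0.1 CPM was added before the log2 step in the correlations, and none for its SD.

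The members, lists and tests were chosen with earlier results of these data known. Genes named are the members, the family, list genes past a threshold and those a result touches, the nearest tested neighbours and the 2 genes most alike over libraries. Some genes under this rule are not reported here. *Src*, *Cav1*, *Tjp1*, *Cdh2*, *Nppc*, *Npr2*, *Pde3a*, *Gpr3* and the oocyte genes named singly were chosen after their values were seen. Alternatives were RLE scaling, DESeq2 1.42.0, limma-voom 3.58.1, no filter, and leaving out libraries.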

Additional observations from a re-analysis of the deposited data

Results flagged for a closer look

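The first exon of *Gja1* stood out in GOAT KO 1141, where its coverage was 64.2% of that of the last exon, against 31.9 to 34.7% in the other libraries labelled GOAT KO. This gap exceeded Dixon's 95% critical value for 4 samples (0.829), which chance exceeds in about 1 in 20 groups. The gene counts and junction reads of *Gja1* in that library are given above.

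*Gja4* had 0.715 spliced reads per 1000000 junction reads in WT 1120, the highest of its group, against 0 in the other 3 libraries labelled WT. The value rests on 2 reads.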

How the results depend on the processing

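None of the 4 tested members was called under any alternative, and the sign of the log2 fold change did not change for any of the 5 under those run, which for *Gjb2* did not include DESeq2 or limma-voom. The log2 fold changes ranged from 0.06 (without WT 1118) to 0.12 for *Gja1*, 0.07 to 0.17 for *Gja4*, -0.36 (without GOAT KO 1139) to -0.05 (without GOAT KO 1146) for *Gja5*, 0.10 to 0.25 for *Gjc1* and 0.28 to 0.78 for *Gjb2*. No share and no correlation passed under any alternative run, but 3 against 3 libraries could not have passed for the shares. The genes called at an adjusted p under 0.05, 4 in the comparison of 8 libraries, were 13 with DESeq2, 7 without the filter on low counts, 20 without WT 1120 and GOAT KO 1139, and 3 to 14 with 1 library left out, the highest without GOAT KO 1139. Those called by the study's rule, 278, were 691 without the filter and 231 to 437 with 1 library left out, the highest without WT 1120. The number of connexins whose spliced reads differed before adjustment was 1, beside 4.29% of single junctions without overlap. The count was 0 without WT 1120 and GOAT KO 1139, where 3 against 3 libraries cannot pass. In no edgeR fit did the *Gja1* junction pass adjustment, the lowest adjusted p being 0.739, without WT 1120. The fits of the *Gja1* junction and the comparison of its exon coverage were added after the data were seen, and the junction's log2 fold change ranged from 0.59 to 0.89. No paired analysis was possible, because the labels give a number for each mouse but no litter. Differences between litters could thus not be taken into account. Depth limits *Gja5* and *Gjb2*, whose counts were below 40 in every library.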
